A study of Rattus norvegicus with 11 samples.

Results

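The miRNAs antisense to Rtl1 are a short run of imprinted miRNA genes in the Dlk1-Dio3 region, taken here as every sense feature named for miR-127, miR-136, miR-431, miR-432, miR-433 or miR-434. Of the 950 features deposited, 7 met this rule: both arms of miR-127, miR-136 and miR-433, and the 5p arm of miR-431. miR-432 and miR-434 had 0 features under those names. The libraries held small RNA of pancreatic islets, taken from control Sprague-Dawley rats: 5 from pups at postnatal day 10 (P10) and 6 from males of 3 months. The pups' sex is not used here, so age and sex cannot be told apart, and whether a library pools several animals is not stated. Counts ranged from 1594961 to 4468745 per P10 library and from 1430412 to 2841550 per adult library. The labelled tissue was checked by its endocrine markers: miR-375-3p averaged 143110 ± 21141 CPM in pups (SD, n = 5) and 287800 ± 26975 CPM in the adult group (SD, n = 6). CPM are counts per 1000000, scaled by TMM factors, which assume that most miRNAs do not change. In the age test below, 97 of 457 features were called higher and 135 lower, so this assumption is not assured here.

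In the Dlk1-Dio3 region the protein-coding genes, Rtl1 among them, are expressed from the paternal chromosome and the non-coding RNAs from the maternal one. The anti-Rtl1 miRNAs are cut from a maternal transcript that runs opposite to Rtl1, a gene derived from a retrotransposon, so that they pair fully with its mRNA and can direct its cleavage. The maternal transcripts, of which Meg3 is the best known, are active in pancreatic endocrine cells. A miRNA hairpin gives a 5p and a 3p arm, and usually one of them is loaded into Argonaute far more often than the other.

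RefSeq (GRCr8) places 6 miRNA genes inside Rtl1: Mir431, Mir433, Mir127, Mir434, Mir136 and, on the opposite strand to these, Mir3543. Mature sequences were matched for 5 of the 7 arms and are shown because they set which targets each arm can read; miR-127-5p and miR-136-5p are named only. Capitals mark the seed, bases 2 to 8.
miR-431-5p: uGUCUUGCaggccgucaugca
miR-433-5p: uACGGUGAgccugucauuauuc
miR-433-3p: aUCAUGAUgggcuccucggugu
miR-127-3p: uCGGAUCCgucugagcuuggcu
miR-136-3p: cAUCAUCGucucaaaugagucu
None of these 5 seeds was shared with another of the 5 or with any other mature rat miRNA in the RefSeq table. The precursors of the most abundant arm and of the arm with the clearest change are shown next, with the mature arms that RefSeq lists in capitals.
Mir127: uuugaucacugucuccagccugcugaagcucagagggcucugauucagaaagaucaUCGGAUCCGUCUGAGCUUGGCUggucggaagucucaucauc
Mir431: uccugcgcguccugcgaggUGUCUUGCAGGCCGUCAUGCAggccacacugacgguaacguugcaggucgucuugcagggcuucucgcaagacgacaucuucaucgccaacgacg

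On Rnor_5.0 the 7 arms lay within 5387 bases of the plus strand of chromosome 6, in the order miR-431, miR-433, miR-127 and miR-136. miR-431-5p was at chr6:142873621-142873641, miR-433-5p at chr6:142874521-142874542 and miR-433-3p at chr6:142874574-142874595. miR-127-5p was at chr6:142875629-142875651 and miR-127-3p at chr6:142875663-142875684. miR-136-5p was at chr6:142878952-142878974 and miR-136-3p at chr6:142878986-142879007.

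A feature deposited under another name covers, going by that name, the sequence of miR-434-3p. It is called miR-3543-5p antisense and lies between miR-127 and miR-136. miR-3543 is on the minus strand, so reads antisense to it, as the tag is understood here, come from the plus strand. The reverse complement of miR-3543 (23 bases) starts with all 22 bases of miR-434-3p, as these sequences from RefSeq show, again with the seed in capitals.
miR-434-3p: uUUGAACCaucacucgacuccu
reverse complement of miR-3543: uUUGAACCaucacucgacuccug
In RefSeq, miR-434-3p starts 1941 bases downstream of miR-127-3p, and on Rnor_5.0 the upstream copy of the antisense feature (chr6:142877604-142877626) also starts 1941 bases downstream. The same check placed miR-433-3p 1089 bases and miR-431 2042 bases upstream of miR-127-3p in both builds, while miR-433-5p was 1142 bases upstream on Rnor_5.0 and 1141 in RefSeq. A second copy at chr6:142878474-142878496 carries the same name. The genome sequence of Rnor_5.0 was not checked at either copy. This feature does not meet the rule and was picked after its values were seen, so it is kept apart from the 7 arms below and counted in none of their totals.

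Adult islets had less miR-431-5p than P10 islets, while the dominant arm, miR-127-3p, did not pass the test. Of the 7 arms, all of which passed the filter on low counts, 2 fell with age (miR-431-5p and miR-127-5p), 0 rose, and 5 did not pass the test (edgeR's quasi-likelihood test, adjusted p under 0.05 over 457 features). Among all features tested, 29.5% were called lower and 21.2% higher, so the share of arms that fell, 28.6%, is near that background. At an unadjusted p under 0.05 the numbers were the same, 2 lower and 0 higher. DESeq2 called 1 arm lower and limma-voom 2, and neither called any higher. The median log2 change of the 7 arms was -0.33, and that of all features tested -0.11. For 1 of the 7 arms every adult library was below every P10 library, as it was for 16.4% of all features.

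**Figure D1:**
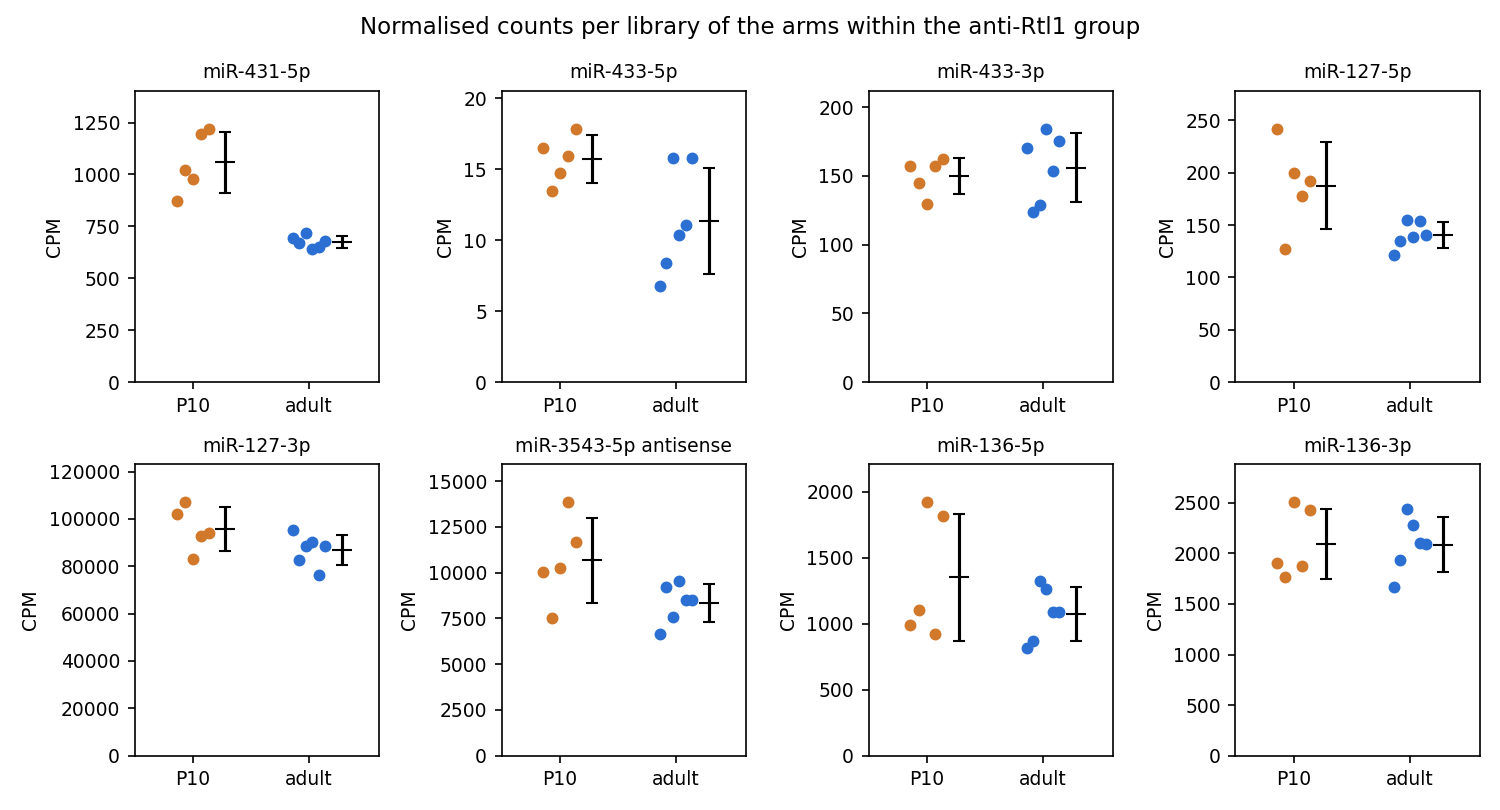
Normalised counts (CPM, linear axes starting at 0) of the 7 anti-Rtl1 arms and of the miR-3543-5p antisense feature, in genome order. Each point is a library (5 P10 in orange, 6 adult in blue), with the mean and SD in black beside it; for miR-431-5p every adult point is below every P10 point, and in the other panels the ages overlap.

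miR-431-5p, the most upstream arm of the group, had the largest change among the 7. Its P10 libraries held 871.2, 1023, 980.1, 1197 and 1221 CPM (replicates 1, 3, 4, 5 and 6). Its adult libraries held 693.2, 671.5, 718.9, 641.6, 650.5 and 677.8 CPM (replicates 1 to 6). The adult libraries were all below the lowest P10 library and close to each other. The mean fell from 1058 ± 148 CPM in pups (SD, n = 5) to 675.6 ± 28.2 CPM in the adult group (SD, n = 6), with a log2 change of -0.65 ± 0.11 (SE; edgeR adjusted p = 0.000245). P10 replicate 3 and adult replicate 1 held the most mesenchymal miRNA of their ages. Without both of them the log2 change of miR-431-5p was -0.67 ± 0.12 (SE; edgeR adjusted p = 0.00113), but the summed mesenchymal level still differed between the libraries left, at 33246 to 47423 CPM at P10 and 17172 to 31799 CPM in adults. In all 22 alternatives run for it, miR-431-5p kept its call, with log2 changes from -0.91 (library totals alone) to -0.49 (upper-quartile scaling).

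miR-127-5p is the minor arm of miR-127. It was at 242.1, 127.01, 199.7, 177.5 and 191.8 CPM in the P10 libraries (replicates 1, 3, 4, 5 and 6). In adults it was at 121.0, 135.1, 154.6, 138.8, 154.2 and 140.4 CPM (replicates 1 to 6). The ages overlapped through P10 replicate 3, which lay below 5 of the 6 adult libraries. Its log2 change was -0.42 ± 0.16 (SE; edgeR adjusted p = 0.0401), and it went from -0.70 to -0.25 over the alternatives, with adjusted p from 0.00547 to 0.243. The call was lost in 15 of 22 alternatives. Of the 11 that left out a single library, it held only without P10 replicate 3 (-0.53, edgeR adjusted p = 0.00547); without P10 replicate 1 the log2 change was -0.31 (adjusted p = 0.0983).

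miR-127-3p ranked 2 or 3 among all tested features in every library. It was at 102270, 107160, 82922, 92750 and 94114 CPM in the P10 libraries (replicates 1, 3, 4, 5 and 6). The adult libraries held 95189, 82617, 88585, 90186, 76499 and 88490 CPM (replicates 1 to 6). The ranges overlapped widely, around means of 95842 ± 9337 CPM in pups (SD, n = 5) and 86928 ± 6502 CPM in the adult group (SD, n = 6). The log2 change was -0.14 ± 0.09 (SE), short of the threshold (edgeR adjusted p = 0.219), with a 95% interval from -0.34 to 0.06. This result rests on the scaling. With library totals alone, miR-127-3p fell by 0.41 on the log2 scale (edgeR adjusted p = 0.00130), in a fit where the median of all features shifted by -0.27. With upper-quartile scaling, where that median shifted by 0.16, its log2 change was 0.02 (adjusted p = 0.864). Over all features 41.8% of the calls were higher in adults, against 22.4% under library totals and 55.2% under the upper quartile.

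At P10, miR-136-5p had the widest spread relative to its mean of the 7 arms. miR-136-5p was at 987.4, 1106, 1924, 922.7 and 1818 CPM in the P10 libraries (replicates 1, 3, 4, 5 and 6) and at 817.6, 868.4, 1326, 1263, 1086 and 1092 CPM in adults (replicates 1 to 6). P10 replicates 4 and 6 were far above the other 3 P10 libraries and above every adult library. The same P10 libraries were highest for miR-136-3p, with 2507 and 2433 CPM in P10 replicates 4 and 6 and 1763 to 1904 CPM in the other 3. Its adult libraries held 1667, 1935, 2442, 2282, 2106 and 2091 CPM (replicates 1 to 6), a range inside that of the pups but for replicate 1. The log2 change was -0.33 ± 0.21 (SE) for miR-136-5p (edgeR adjusted p = 0.204, 95% interval -0.79 to 0.13) and -0.01 ± 0.13 (SE) for miR-136-3p (adjusted p = 0.967, interval -0.28 to 0.27). Scaled by library totals alone, miR-136-5p passed as lower (log2 change -0.59, edgeR adjusted p = 0.0352). The sign of the miR-136-3p change differed between scalings, with values from -0.27 to 0.15 over the alternatives.

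miR-433 was the least abundant member. miR-433-3p was at 156.9, 145.2, 129.5, 157.3 and 161.9 CPM in the P10 libraries (replicates 1, 3, 4, 5 and 6) and at 170.1, 124.1, 128.5, 184.4, 153.8 and 175.6 CPM in adults (replicates 1 to 6). The adult libraries spread on both sides of the pups. Its log2 change was 0.05 ± 0.14 (SE; edgeR adjusted p = 0.751, 95% interval -0.25 to 0.36), and over the alternatives it took both signs, from -0.21 to 0.22. miR-433-5p had from 8 to 86 counts per library, so each of its levels rests on few reads. It averaged 15.7 ± 1.69 CPM in pups (SD, n = 5) and 11.4 ± 3.76 CPM in the adult group (SD, n = 6). The log2 change of -0.47 ± 0.23 (SE) missed the threshold (edgeR adjusted p = 0.0967). It was called lower when scaled by library totals (-0.73, adjusted p = 0.0226) and without adult replicate 6 (-0.59, adjusted p = 0.0484).

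The miR-3543-5p antisense feature, whose name points to the miR-434-3p sequence, was more abundant than any of the 7 arms but miR-127-3p. It was at 10063, 7507, 10258, 13863 and 11665 CPM in the P10 libraries (replicates 1, 3, 4, 5 and 6), and at 6665, 9197, 7602, 9533, 8527 and 8508 CPM in adults (replicates 1 to 6). P10 replicate 3 was lower than 5 of the 6 adult libraries, and the other P10 libraries were higher than all of them. The log2 change of -0.36 ± 0.14 (SE) just missed the threshold (edgeR adjusted p = 0.0533), and it passed without P10 replicate 3 (-0.46, adjusted p = 0.0156). It also passed with library totals alone (-0.63, adjusted p = 0.0104), with a mean CPM of at least 10 (-0.39, adjusted p = 0.0336), and with P10 replicate 3 and adult replicate 1 both left out (-0.40, adjusted p = 0.0271). These values are of the downstream copy, which held more reads. It starts 2811 bases from miR-127-3p, so the match of distance to miR-434-3p was made for the upstream copy only. With both copies summed the log2 change was -0.36 (adjusted p = 0.0503).

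By mean CPM over all libraries the 7 arms stood in the order miR-127-3p, miR-136-3p, miR-136-5p, miR-431-5p, miR-127-5p, miR-433-3p and miR-433-5p. Ligation and PCR favour some sequences, so this order is one of reads and not of molecules. miR-136-5p and miR-431-5p overlapped at P10 (922.7 to 1924 CPM and 871.2 to 1221 CPM) but not in adults (817.6 to 1326 CPM and 641.6 to 718.9 CPM). miR-127-5p and miR-433-3p overlapped at both ages, and their order turned: the means were 187.6 and 150.1 CPM at P10 and 140.7 and 156.1 CPM in adults.

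As a share of all counts, which uses no TMM factor, the 7 arms together held 13.1%, 10.4%, 10.1%, 11.3% and 10.8% of the P10 libraries (replicates 1, 3, 4, 5 and 6). They held 8.15%, 8.33%, 8.43%, 8.85%, 7.70% and 8.83% of the adult libraries (replicates 1 to 6). The mean was 11.1% ± 1.20 at P10 (SD, n = 5) and 8.38% ± 0.435 in adults (SD, n = 6), and by this share the ages did not overlap. By the TMM-scaled CPM the ages overlapped, with 88677 to 111330 CPM for the 7 arms together at P10 and 80661 to 98665 CPM in adults. miR-375-3p took 16.0% ± 3.34 of the counts in pups and 26.5% ± 1.99 in the adult group. With its counts left out of the total the difference went from -2.75 to -1.87 percentage points, and the ages overlapped (11.6% to 15.8% at P10, 10.7% to 12.4% in adults). Within the group, miR-127-3p held 95.1% ± 1.21 of the 7 arms' counts at P10 (SD, n = 5) and 95.4% ± 0.609 in adults (SD, n = 6), with overlap. miR-431-5p held 1.06% ± 0.185 at P10 and 0.744% ± 0.0490 in adults, and for this arm the ages did not overlap. No test was made on these summed shares, since the arms were chosen with results known.

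Whether the arms moved apart from each other was tested on the log2 ratio of each feature to miR-127-3p in the same library, a measure that needs no scaling between libraries. miR-431-5p fell relative to miR-127-3p, by 0.50 ± 0.14 on the log2 scale (SE; limma adjusted p = 0.00825). Its ratio was lower in all 6 adult libraries than in any of the 5 P10 libraries, as was that of 13.8% of all features, but the margin between adult replicate 5 and P10 replicate 1 was 0.0021 on the log2 scale. This call held in all 14 alternatives run, with log2 changes from -0.59 to -0.44. The other 5 arms did not pass, and 0 were called higher (also 0 at an unadjusted p under 0.05, and 1 lower). Among all 456 features set against miR-127-3p, 22.6% were called lower and 25.7% higher. The intervals of the 5 that did not pass were wide: from -0.67 to 0.17 for miR-127-5p, -0.23 to 0.50 for miR-136-3p, -0.66 to 0.38 for miR-136-5p, -0.14 to 0.51 for miR-433-3p and -0.89 to 0.18 for miR-433-5p. miR-127-5p passed without P10 replicate 3 (-0.42, limma adjusted p = 0.0478). The miR-3543-5p antisense feature changed by -0.20 ± 0.19 relative to miR-127-3p (SE; limma adjusted p = 0.394).

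**Figure D2:**
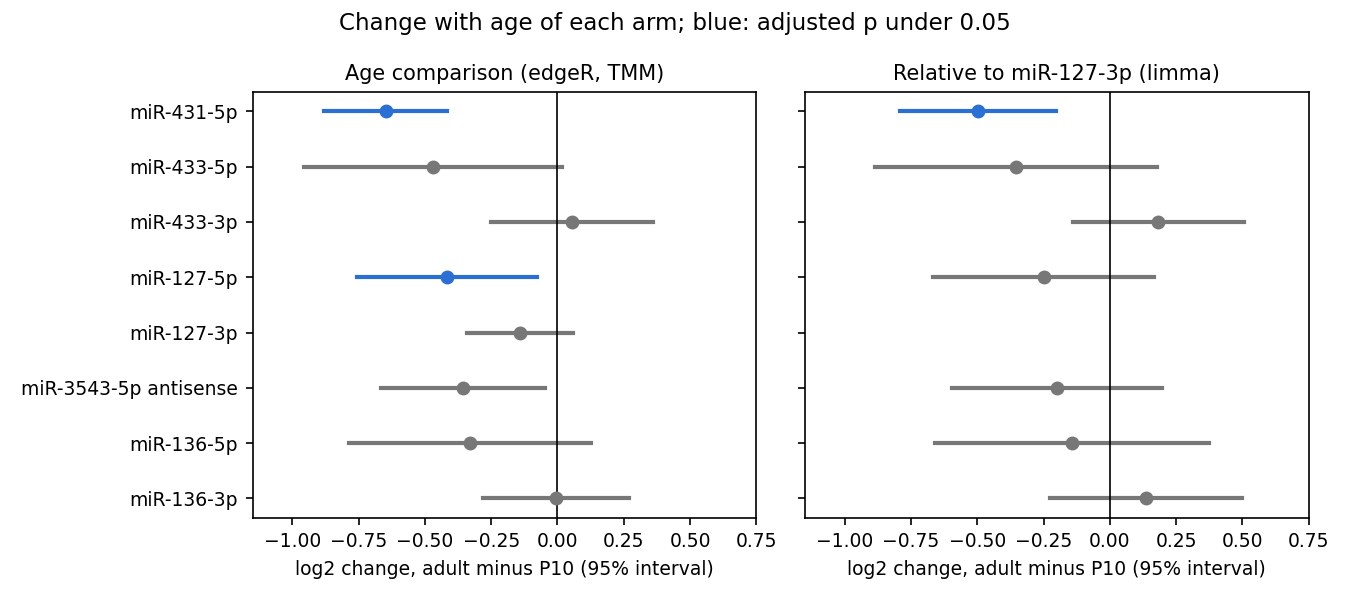
Log2 change from P10 to adult of each arm with its unadjusted 95% interval, by edgeR with TMM scaling (left) and relative to miR-127-3p in the same library (right). Blue marks an adjusted p under 0.05; miR-431-5p is blue on both sides (-0.65 and -0.50) and miR-127-5p on the left (-0.42).

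The choice of arm was compared for the 3 precursors with both arms tested. miR-127 gave almost only its 3p arm, with 536.4 ± 175 reads of 3p per read of 5p at P10 (SD, n = 5) and 621.0 ± 95.2 in adults (SD, n = 6). P10 replicate 3 had the highest ratio, 838.5, and the other P10 libraries lay between 413.7 and 520.3. miR-136 gave more of its 3p arm in every library, with 1.64 ± 0.333 of 3p per 5p at P10 and 1.96 ± 0.153 in adults. P10 replicates 4 and 6, the libraries with the most miR-136, had the lowest ratios, 1.30 and 1.34. For miR-433 the ratio was 9.18 ± 0.724 at P10 and 14.05 ± 5.14 in adults, with 22.6 in adult replicate 1 and 7.79 in adult replicate 3. Of the 3 precursors 0 passed a limma test of the 5p to 3p log2 ratio at an adjusted p under 0.05, where 22.8% of all precursors tested were called in either direction. At an unadjusted p under 0.05 there was 1, miR-433 (log2 change of the 5p to 3p ratio -0.54 ± 0.24, SE; limma adjusted p = 0.111), and it passed without adult replicate 3 (-0.69, adjusted p = 0.0246). The changes were -0.25 ± 0.21 for miR-127 (adjusted p = 0.415) and -0.28 ± 0.18 for miR-136 (adjusted p = 0.250).

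**Figure D3:**
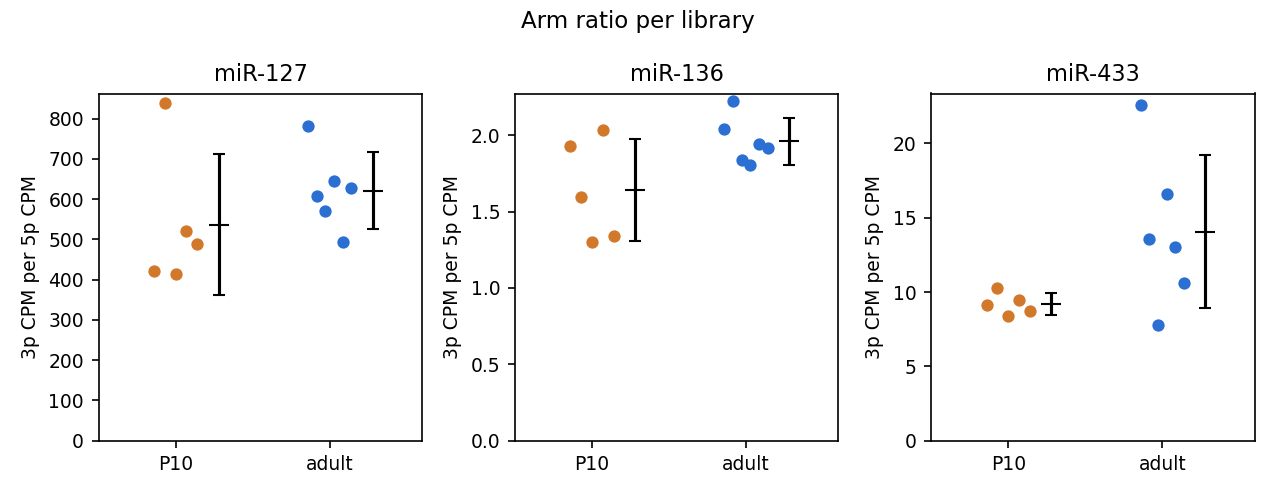
Ratio of 3p to 5p CPM per library (linear axes starting at 0, with a prior count of 2 in both arms) for the 3 anti-Rtl1 precursors with both arms tested. Points are libraries (5 P10 in orange, 6 adult in blue) with the mean and SD in black; the ages overlap in each panel, and for miR-433 the adult libraries run from 7.79 to 22.6.

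A common rise and fall of the arms was not seen across libraries of the same age. With each age centred on its own mean, the Pearson correlation of log2 CPM over the 11 libraries ran from -0.54 to 0.93 over the 21 pairs of arms, with a median of 0.03, and 9 pairs were negative. The highest value joined the arms of miR-136 (r = 0.93, Spearman rho = 0.88), and the lowest joined miR-127-3p and miR-136-3p (r = -0.54, rho = -0.55). The points of a pair share library, depth and TMM factor.

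The features most like the mean profile of the 7 arms were found by the Pearson correlation of log2 CPM with the arms' mean standardised level. This covered 11 libraries and 331 sense features of at least 10 CPM. The mean gives each arm the same weight, and the arms were weakly correlated, so it need not resemble any single arm. They were miR-487b-3p (r = 0.95, rho = 0.89), miR-874-3p (0.87, 0.85), miR-6331-3p (0.85, 0.93), miR-493-5p (0.84, 0.85) and miR-106b-3p (0.80, 0.88). miR-487b-3p and miR-493-5p are themselves from Dlk1-Dio3. With each age centred on its own mean, miR-487b-3p again came first (r = 0.92, rho = 0.94), and the next were miR-540-5p (0.81, 0.73), miR-376b-3p (0.80, 0.77), miR-188-5p (0.80, 0.79) and miR-455-3p (0.78, 0.82). These are descriptions, with no test, over libraries that share depth, TMM factor and age.

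Elsewhere in Dlk1-Dio3, 48 of 67 listed arms were tested, of which 11 fell, 4 rose and 33 did not pass, with a median log2 change of -0.04. The shares called were 22.9% lower and 8.33% higher, both below those of all features tested (29.5% and 21.2%). The 7 arms made up 87.5% ± 1.96 of the counts of these 67 arms and themselves at P10 (SD, n = 5) and 87.0% ± 1.04 in adults (SD, n = 6), with overlap. This total leaves out the miR-3543-5p antisense feature and miRNAs of the region without a listed arm, among them miR-299, miR-369, miR-382 and miR-409. The most abundant of the others were miR-541-5p (3542 ± 940 CPM at P10, 3854 ± 421 in adults) and miR-411-5p (3812 ± 813 and 3194 ± 212 CPM), and neither passed the test (edgeR adjusted p = 0.563 and 0.134). Of those that fell, miR-412-5p (log2 change -1.51 ± 0.16, SE) and miR-543-5p (-1.52 ± 0.27, from 7.20 to 2.40 CPM) had the smallest p. Of those that rose, miR-666-5p (0.41 ± 0.15) and miR-540-3p (0.51 ± 0.19) had the smallest p.

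Within 25 kb of miR-127-3p, 11 other arms were tested, of which 2 fell, 2 rose and 7 did not pass. Over all features tested, 29.5% were called lower and 21.2% higher. Upstream, miR-493-5p fell from 19.5 ± 4.70 to 8.57 ± 2.12 CPM (edgeR adjusted p = 0.000669) and miR-673-3p from 89.5 ± 15.6 to 61.0 ± 8.46 CPM (adjusted p = 0.00777). Between them and miR-431, miR-540-3p rose from 155.6 ± 31.6 to 221.7 ± 53.1 CPM (adjusted p = 0.0378) and miR-665-3p from 16.0 ± 2.76 to 23.9 ± 7.65 CPM (adjusted p = 0.0465). Downstream, the nearest abundant arm, miR-341-3p, was at 890.4 ± 76.1 and 915.8 ± 58.0 CPM (adjusted p = 0.729). Arms that fell and arms that rose within 25 kb lay upstream, but downstream this window held only the arms of miR-341, so the sides cannot be compared. Just past the window, miR-370-3p, 26470 bases downstream, rose by 0.54 ± 0.21 on the log2 scale (SE, edgeR adjusted p = 0.0425).

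**Figure D4:**
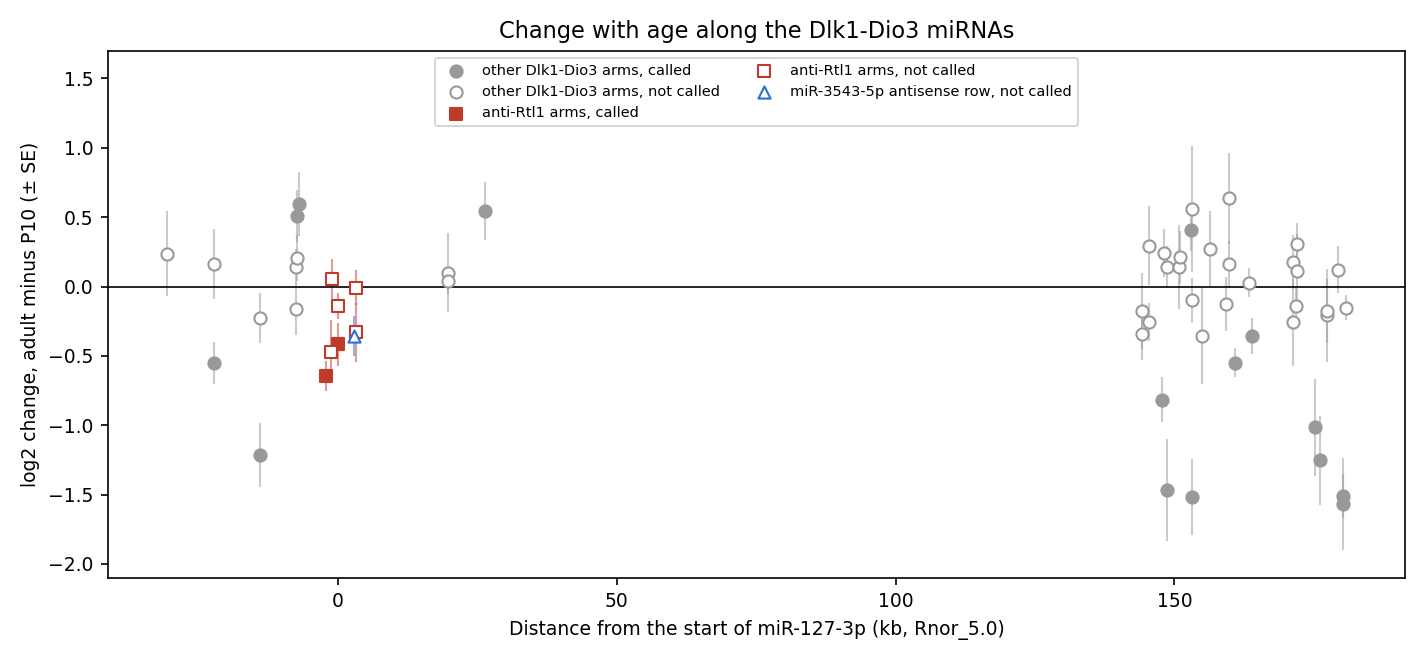
Log2 change from P10 to adult (with SE) of the tested Dlk1-Dio3 arms against their distance from the start of miR-127-3p in kb on Rnor_5.0. Red squares are the 7 anti-Rtl1 arms, grey circles the 48 other arms and the blue triangle the miR-3543-5p antisense feature, filled where the adjusted p was under 0.05; the anti-Rtl1 arms run from -0.65 (miR-431-5p) to 0.05 (miR-433-3p).

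Markers of some other cell types changed in the same libraries. Among all features tested, 29.5% were called lower and 21.2% higher, and the leukocyte share called lower, 25%, is near that background. In bulk islets, fewer cells of a type and less RNA per cell cannot be told apart. Of 6 mesenchymal arms (miR-143, miR-145 and miR-199a) 4 fell and 0 rose, and their summed level was 33246 to 61126 CPM at P10 and 17172 to 58287 CPM in adults. Of 3 tested acinar arms 2 rose, with 22.2 to 37.7 CPM at P10 and 28.6 to 127.1 CPM in adults for all 6. Of 4 tested leukocyte arms 1 fell, with 681.0 to 1427 and 248.9 to 832.3 CPM for all 7. Of 7 tested islet endocrine arms (miR-375 and miR-7) 5 rose and 0 fell, with 113570 to 166540 and 252670 to 326010 CPM for all 8. Of 2 tested erythroid arms and 4 tested neuronal and glial arms, 0 passed. No listed arm was at 0 in every library, and miR-126, the endothelial marker, had no sense feature. The planned markers miR-214 (mesenchymal), miR-486 (erythroid) and miR-9 (neuronal) matched no feature by name either, so these lists are incomplete. The part of these cell types in the change of miR-431-5p was not tested.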

How the data were processed

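Values as deposited by the authors are raw read counts for each mature miRNA arm at each locus. The build is Rnor_5.0, per the file headers, or rn5 in the submitters' processing notes; edgeR and DESeq are listed there without a role. The aligner, the counting rules and the handling of reads that fit several loci: not given in the sources used here. Per the labels' protocols, Trizol RNA went into TruSeq small RNA libraries; molecular identifiers are not mentioned, so the values count reads rather than molecules.

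The series table held the same counts as all 11 library tables. Where a name had several loci, the highest count in each library was used (898 features). In R 4.3.3, edgeR 4.0.16 applied filterByExpr and TMM scaling, and 457 features entered a robust quasi-likelihood fit of age, with Benjamini-Hochberg adjustment. Ratios to miR-127-3p and of 5p to 3p were tested with limma 3.58.1 on log2 CPM (prior count of 2). 95% intervals are unadjusted. The steps were tested on simulated data. Alternatives included DESeq2 1.42.0, other scalings and leaving out each library. Every arm that met the rule is named; the other Dlk1-Dio3 arms named are the 2 most abundant, the 2 with the smallest p in each direction and, added after their values were seen, those called near the group and miR-341-3p. The members, lists and tests were chosen with earlier results of these data known.

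Libraries of one age differed by more than sampling noise (chi-square per degree of freedom at least 11.7), and each counted as 1 replicate. The labels call them biological replicates; if they do not come from separate animals, p-values measure only the spread between these libraries.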

Additional observations from a re-analysis of the deposited data

How the results depend on the processing

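miR-431-5p kept its direction and its call, in the age comparison and relative to miR-127-3p, under every alternative run for it. The number of the 7 arms called lower with age was 2, and it became 1 with DESeq2's size factors, upper-quartile scaling, no filter, DESeq2 or the replicate block, and 5 with library totals alone. It was 1 to 2 when each library was left out in turn. The arm lost in these cases was miR-127-5p, with log2 changes of -0.32 (DESeq2's size factors), -0.25 (upper-quartile scaling), -0.38 (no filter), -0.32 (DESeq2) and -0.38 (replicate block, edgeR adjusted p = 0.144). 0 arms were called higher under any alternative. With each library left out in turn, the number of arms called lower relative to miR-127-3p was 1 to 2, and the number of precursors called with a lower 5p to 3p ratio was 0 to 1.

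No pairing by replicate number was seen: the deviations of same-numbered libraries correlated at -0.21 to 0.20 over 5 numbers. Of these, 0 of 5 libraries matched their own number best. With 5 pairs a weak pairing could be missed, and a preparation shared by same-numbered libraries was not tested. The replicate block left miR-431-5p at -0.64 (edgeR adjusted p = 0.00373). Depth limits miR-433-5p most, at 8 to 86 counts per library.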

Other observations

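The reads of the miR-3543-5p antisense feature were divided unevenly between its loci. The upstream locus, whose distance from miR-127-3p equals that of miR-434-3p in RefSeq, held 8.11% to 10% of both loci's counts in the 11 libraries. The downstream locus, which starts 2811 bases from miR-127-3p, held the rest. The distance from miR-127-3p to miR-136-3p was 3323 bases on Rnor_5.0 and 2873 bases in RefSeq (GRCr8), so the builds differ in this interval. The seed of miR-434-3p was shared with 0 other mature rat miRNAs in the RefSeq table. An analysis that reads features by sense name alone would leave out this feature, which ranked between 13 and 22 of 457 in every library and held 1.20% ± 0.327 of all counts at P10 (SD, n = 5) and 0.773% ± 0.132 in adults (SD, n = 6).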
